A study of Mus musculus with 14 samples.

Results

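Sialyltransferases are the Golgi enzymes that put sialic acid, an acidic sugar, on the ends of glycans. The 10 genes described here were chosen by symbol as the enzymes that make ligands for Siglecs, the receptors that bind sialic acid, and they are 10 of 24394 named genes in the table. RNA was sequenced from microglia, the resident macrophages of the brain, of C57BL/6 mice aged 18 months. Either an antibody that blocks CD22 or a control IgG was infused by pump into the cerebrospinal fluid for 1 month, so both groups carried a pump and a cannula. Each group held 7 libraries, called anti-CD22 and IgG replicates 1 to 7, from about 20000 living cells each, sorted for CD11b and low CD45 from the hemisphere opposite the cannula. Nothing in the labels ties a library to a mouse of its own, so p-values measure only the spread between these samples. No knockout or transgene is involved, and the antibody acts on the CD22 protein rather than on any gene described here.

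Each enzyme takes sialic acid from its activated form, CMP-sialic acid, and joins carbon 2 of that sugar to a fixed carbon of a fixed acceptor. A link to carbon 3 of galactose (α2,3) is made by the St3gal enzymes, a link to carbon 6 of galactose (α2,6) by St6gal1, a link to carbon 6 of N-acetylgalactosamine (GalNAc) by the St6galnac enzymes, and a link to carbon 8 of another sialic acid (α2,8) by the St8sia enzymes. Siglecs tell these links apart. CD22, known from B cells as an inhibitory receptor, binds sialic acid in the α2,6 link to galactose, while sialoadhesin (Siglec1) and the myelin protein Mag prefer the α2,3 link. Microglia carry Siglecs and are also surrounded by sialylated cells, so a transcript measured here speaks of the microglia's own glycan-making enzymes and not of the sialic acid on neighbouring cells.

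The 13 libraries whose whole reads could be recovered held from 20221836 to 38101421 reads. The 10 microglia markers were high in every library, with a summed level of 1853200 to 1980360 normalized counts in anti-CD22 libraries and 1748910 to 2083250 in IgG libraries. A normalized count is a read count divided by the library's size factor. Markers of other cells were present as well. Astrocyte markers summed to between 6657 and 8537 normalized counts in anti-CD22 libraries and between 5927 and 8617 in IgG libraries, most of it from the glutamate transporter gene Slc1a3 (5812 to 8469.9 over all libraries). Oligodendrocyte markers summed to between 4949 and 5659.7 in anti-CD22 libraries and between 5451 and 6710.0 in IgG libraries. The B cell genes Ms4a1 and Pax5 were at 0 in all 14 libraries, while Cd79b stood between 1118 and 1639.6 normalized counts. The B cell list summed to between 1133 and 1463 in anti-CD22 libraries and between 1208 and 1639.6 in IgG libraries. The endothelial gene Cldn5 was at 0 in all 14 libraries and Pecam1 between 607 and 1226, and the 6 endothelial markers summed to between 885 and 1235 in anti-CD22 libraries and between 635 and 1216 in IgG libraries. Monocyte markers summed to between 88.2 and 2313 in anti-CD22 libraries and between 137 and 9181 in IgG libraries. Neuron markers summed to at most 98.9 in anti-CD22 libraries and 72.4 in IgG libraries, and T and NK cell markers to at most 26.7 and 18.9. Border macrophage markers summed to between 262 and 2461 normalized counts in anti-CD22 libraries and between 102 and 1724 in IgG libraries, and neutrophil markers to between 0 and 10131 in anti-CD22 libraries and between 3.34 and 53461 in IgG libraries. No tested gene of the 10 marker lists passed the threshold between the groups (0 genes), where 0.00859% of all genes tested did. Many markers were too low to be tested. Only 0 T and NK cell, 1 neuron, 2 B cell and 3 endothelial markers were tested. The libraries also differed in how strongly level followed transcript length, and the fits that bear on this follow the tests below. The part of the other cells' markers in the differences was not tested.

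All 10 genes were above 0 in all 14 libraries, and all 10 passed the filter of a mean of 10 normalized counts. Levels between genes are compared per kilobase of the longest annotated transcript, which removes the advantage of long transcripts in read number. The order on this scale, by the mean over all libraries, was St3gal5, St6galnac4, St3gal6, St3gal2, St6gal1, St3gal3, St3gal4, St6galnac6, St8sia4 and St3gal1. The first stood 325 times above the last. St3gal5, St6galnac4, St3gal6, St6gal1 and St6galnac6 each exceeded the next gene in this order in 14 of 14 libraries, with no overlap of ranges. St3gal2 exceeded St6gal1 in 13 of 14, St3gal3 exceeded St3gal4 in 13, St3gal4 exceeded St6galnac6 in 11 and St8sia4 exceeded St3gal1 in 13, and the ranges of these neighbouring pairs overlapped. With the coding length in place of the whole transcript St6galnac4 stood above St3gal5, and St8sia4 stood above St6galnac6 and St3gal4.

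**Figure D1:**
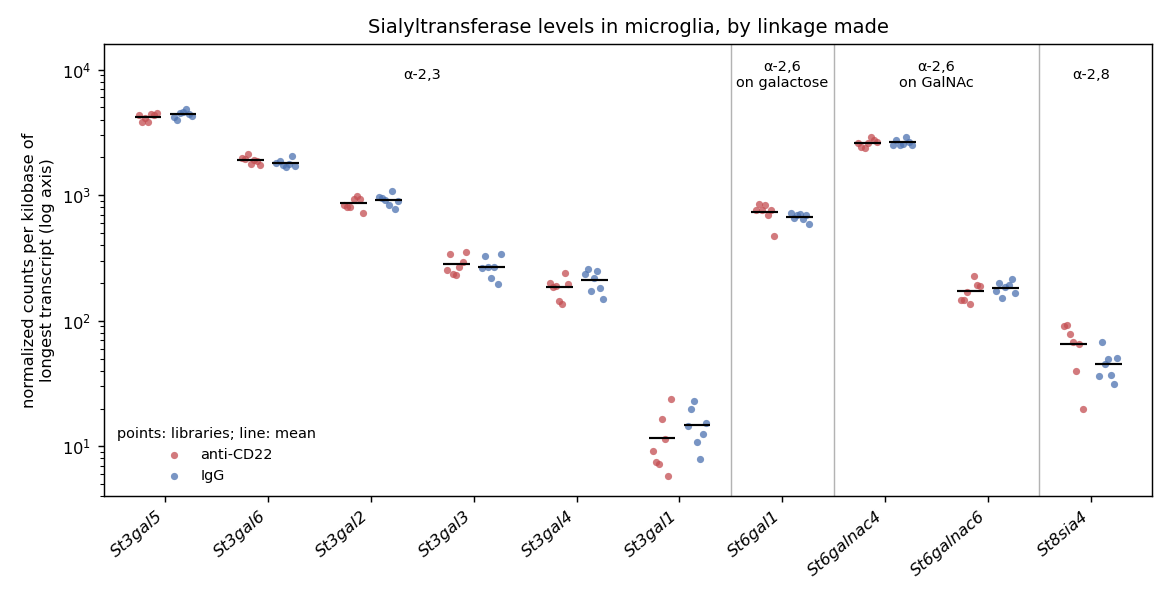
Level of the 10 sialyltransferase genes, in normalized counts per kilobase of the longest transcript on a log axis, grouped by the linkage each enzyme makes. Points are libraries (7 anti-CD22, 7 IgG) and lines are group means; St3gal5 and St6galnac4 lie highest, St8sia4 and St3gal1 lowest and widest, and the groups overlap for every gene.

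St3gal5, the α2,3 enzyme that turns lactosylceramide into GM3, the root of most gangliosides (sialylated lipids), had the highest level. Its gene lies on chromosome 6 from 72097592 to 72154571 (GRCm38, plus strand). It stood at 4208 ± 291 normalized counts per kilobase in anti-CD22 libraries and at 4403 ± 303 in IgG libraries (SD, n = 7 each), above 97.1% of the 11224 tested genes with a known transcript length. In normalized counts the lowest, median and highest values were 9300, 10587 and 11001 in anti-CD22 libraries, against 9603, 10859.6 and 11917 in IgG libraries. The ranges overlapped for most of their length, and the IgG median exceeded 5 of 7 anti-CD22 libraries. It was among the least variable genes, with a within-group SD of 0.10 on the log2 scale against a median of 0.25 over all genes tested.

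St3gal6, which puts α2,3 sialic acid on the Gal-GlcNAc ends of glycoproteins, was the third gene in order (chromosome 16, 58468125 to 58524243, minus strand). Its level was 1907 ± 130.5 normalized counts per kilobase in anti-CD22 libraries and 1805 ± 129 in IgG libraries (SD, n = 7 each). The lowest, median and highest values were 7194, 7871 and 8754 normalized counts in anti-CD22 libraries, against 6939, 7253 and 8506 in IgG libraries. In 6 of 7 anti-CD22 libraries the value lay above the IgG median, and the ranges overlapped. Its exons share 1603 bases with Dcbld2 on the opposite strand, and the counting is not stated to use strand, so reads in those bases cannot be told apart. Dcbld2 itself averaged 487 normalized counts in anti-CD22 libraries and 455 in IgG libraries.

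St3gal2 acts on the Gal-GalNAc ends of O-glycans and of gangliosides, where it makes GD1a and GT1b, ligands of Mag (chromosome 8, 110919922 to 110972480, plus strand). It stood at 859 ± 97.9 normalized counts per kilobase in anti-CD22 libraries and at 919 ± 97.1 in IgG libraries (SD, n = 7 each). The lowest, median and highest values were 3144, 3672 and 4368 normalized counts in anti-CD22 libraries, against 3439, 4044 and 4761 in IgG libraries. The lowest of all was anti-CD22 replicate 7, and the IgG median exceeded 4 of 7 anti-CD22 libraries. St3gal1, which has the same Gal-GalNAc acceptor on core 1 O-glycans, was far lower (chromosome 15, 67102875 to 67176830, minus strand). Its level was 11.7 ± 6.50 normalized counts per kilobase in anti-CD22 libraries and 14.9 ± 5.21 in IgG libraries (SD, n = 7 each), higher than 10.98% of tested genes.

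St3gal3 and St3gal4 act on the Gal-GlcNAc ends of N- and O-glycans, like St3gal6, and were of middle level. St3gal3 (chromosome 4, 117932154 to 118134914, minus strand) averaged 281 ± 47.6 normalized counts per kilobase in anti-CD22 libraries and 269 ± 52.5 in IgG libraries. St3gal4 (chromosome 9, 35046576 to 35119268, minus strand) averaged 184 ± 34.9 in anti-CD22 libraries and 209 ± 41.9 in IgG libraries (SD, n = 7 each for both genes). In normalized counts St3gal3 ranged from 590 to 894 in anti-CD22 libraries and from 498 to 867 in IgG libraries. St3gal4 ranged from 284 to 499 in anti-CD22 libraries and from 311 to 538 in IgG libraries, with 6 anti-CD22 libraries of 7 lower than the IgG median. For both genes the groups overlapped over most of the range. St3gal4 shares 412 exon bases with the opposite-strand transcript 4930581F22Rik, which averaged 17.3 normalized counts in anti-CD22 libraries and 13.4 in IgG libraries.

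St6gal1, the enzyme that makes the α2,6 link to galactose that CD22 binds, was the only one of the 2 genes for this link to pass the filter (chromosome 16, 23224740 to 23360350, plus strand). It stood at 735 ± 129 normalized counts per kilobase in anti-CD22 libraries and at 673 ± 46.1 in IgG libraries (SD, n = 7 each), above 79.6% of tested genes. The lowest, median and highest values were 2112, 3452 and 3855 normalized counts in anti-CD22 libraries, against 2653, 3110 and 3267 in IgG libraries. In 5 of 7 anti-CD22 libraries the value lay above the highest IgG library, while anti-CD22 replicate 7 lay below the lowest. Cd22, whose protein binds this link, stood at 373 ± 46.3 normalized counts per kilobase in anti-CD22 libraries and 370 ± 70.3 in IgG libraries. The exons of St6gal1 share 200 bases with the opposite-strand transcript BC106179, which has no entry by that name among the named genes.

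St6galnac4, the second gene in order, adds α2,6 sialic acid to the GalNAc of an O-glycan whose galactose is already sialylated, which gives disialylated core 1. Its gene (chromosome 2, 32587095 to 32599698) ends 10 bases before that of St6galnac6 begins (32599709 to 32620806), both on the plus strand. St6galnac4 stood at 2610 ± 187 normalized counts per kilobase in anti-CD22 libraries and at 2634.5 ± 152 in IgG libraries (SD, n = 7 each). In normalized counts it ranged from 9449 through a median of 10466 to 11652 in anti-CD22 libraries, and from 10039.6 through 10217 to 11684 in IgG libraries. It was the steadiest of the 10 genes, and the highest of all libraries stood 1.24 times above the lowest. St6galnac6, which makes α-series gangliosides, was far lower, at 173 ± 33.3 normalized counts per kilobase in anti-CD22 libraries and 183 ± 22.1 in IgG libraries. Its values ran from 344 to 579 normalized counts in anti-CD22 libraries, 3 of them below the lowest IgG library, and from 384 to 547 in IgG libraries.

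St8sia4 extends chains of α2,8-linked sialic acid into polysialic acid, a polymer best known from the neural adhesion molecule NCAM (chromosome 1, 95587682 to 95667571, minus strand). Per kilobase it was low, at 64.9 ± 26.8 normalized counts in anti-CD22 libraries and 45.3 ± 12.4 in IgG libraries (SD, n = 7 each), above 27.3% of tested genes. In normalized counts the 7 anti-CD22 libraries, replicates 1 to 7, stood at 916, 925, 786, 678, 395, 652 and 199.6. The 7 IgG libraries, replicates 1 to 7, stood at 361, 685, 451, 496, 369.6, 313 and 507. In anti-CD22 replicates 1, 2 and 3 the level was above every IgG library, in replicate 7 it was below every one, and the other 3 lay within the IgG range. St8sia4 and St3gal1 were the most variable of the 10 genes, each with a within-group SD of 0.62 on the log2 scale, higher than in 84.5% of tested genes.

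The summed level per kilobase of the 10 genes was shared out by linkage in each library. The 6 α2,3 genes held 67.5 ± 1.40% of the sum in anti-CD22 libraries and 68.3 ± 0.773% in IgG libraries (SD, n = 7 each). The 2 GalNAc enzymes held 25.2 ± 1.31% in anti-CD22 libraries and 25.2 ± 0.797% in IgG libraries, nearly all of it from St6galnac4. St6gal1 held 6.68 ± 1.28% in anti-CD22 libraries, with a range of 4.32% to 8.06%, and 6.04 ± 0.468% in IgG libraries, with a range of 5.36% to 6.63%. St8sia4 held 0.591 ± 0.251% in anti-CD22 libraries and 0.408 ± 0.118% in IgG libraries, and for all 4 linkages the ranges overlapped. St3gal5 alone held from 35.7% to 41.5% of the sum. With coding length the mean share of St8sia4 over all libraries was 1.42% instead of 0.499%. The sum leaves out the further α2,8 genes St8sia6 and St8sia1. These averaged 224 and 6.82 normalized counts per kilobase of longest transcript over all libraries, against 55.1 for St8sia4. A share of transcripts is no measure of enzyme activity or of the glycans made.

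**Figure D2:**
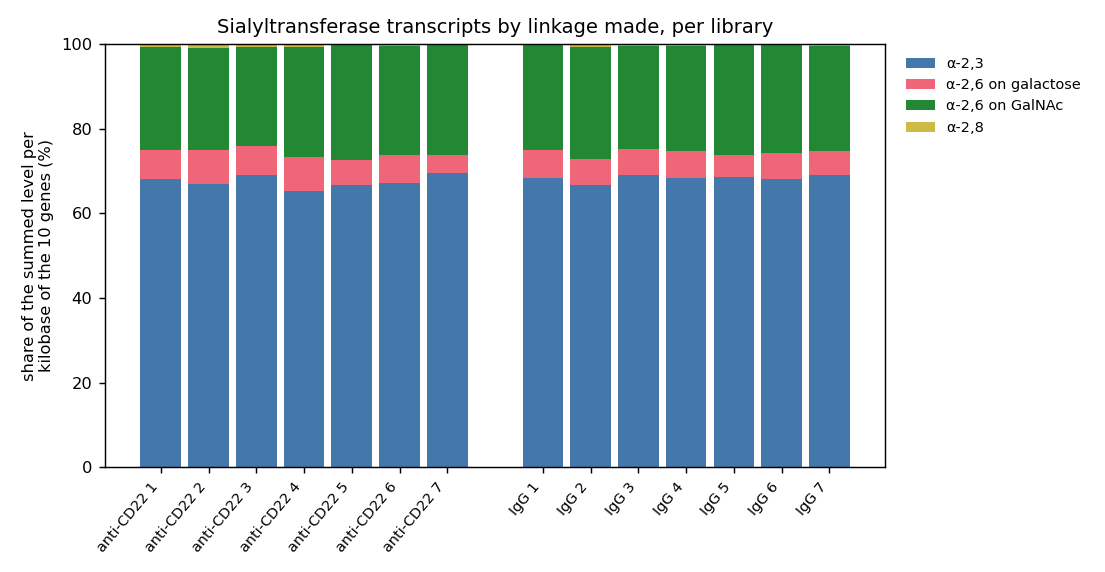
Share of the summed level per kilobase of the 10 genes, in percent, by the linkage their enzymes make; each bar is a library, 7 anti-CD22 on the left and 7 IgG on the right. The α2,3 genes hold between 65.4% and 69.4% of every anti-CD22 library and between 66.8% and 69.1% of every IgG library, and anti-CD22 replicate 7 has the smallest share of St6gal1 (4.32%).

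Whether a month of CD22 blockade changed these genes was tested with limma over 11646 genes, on log2 values after adding 1 to the normalized count, with Benjamini-Hochberg adjustment. The test called 0 of the 10 genes at an adjusted p of 0.05, where 0.00859% of all genes tested were called (1 gene, the immediate early gene Ier2). At an unadjusted p under 0.05 there were also 0 of 10, against 12.8% of all genes tested. Without anti-CD22 replicate 7 that count was 2 of 10 (St6gal1 and St8sia4), against 17% of all genes. Without this library and with the trend of level with transcript length and GC content removed it was 3 of 10 (St3gal1, St6gal1 and St8sia4), against 12.1% of all genes. It was 0 of 10 with the trend removed in all libraries, against 9.73% of all genes, and 0 of 10 without the 3 anti-CD22 libraries of steepest length trend, against 4.99%. That last fit kept only anti-CD22 replicates 4 to 7, so its counts cannot be set level with those of all 7. On recovered reads edgeR called 0 of the 10 genes (0% of all genes tested) and DESeq2 called 0 of the 8 to which it gave an adjusted p (0.524% of all), with 0 of 10 at an unadjusted p under 0.05 by either tool, against 8.82% and 10% of all genes. The groups overlapped for all 10 genes, and 0.258% of all genes tested did not overlap. In bulk RNA fewer cells that express a gene and less RNA per cell cannot be told apart. Of the 10 genes 4 were higher and 6 lower in anti-CD22 libraries. Their median log2 fold change was -0.04, against 0.00 over all genes tested.

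The intervals of the differences show what sizes of change these libraries leave possible. They were narrowest for the 3 genes of highest level. The 95% interval of the fold change, anti-CD22 over IgG, ran from 0.915 to 1.07 for St6galnac4, from 0.880 to 1.04 for St3gal5 and from 0.973 to 1.15 for St3gal6. It ran from 0.831 to 1.05 for St3gal2, from 0.927 to 1.25 for St6gal1, from 0.867 to 1.27 for St3gal3, from 0.708 to 1.10 for St3gal4 and from 0.776 to 1.13 for St6galnac6. The intervals of St8sia4, from 0.888 to 1.97, and of St3gal1, from 0.463 to 1.19, were the widest, so that a change of over 1.5-fold in one direction was not excluded for either. These intervals are on the log2 scale with 1 added, which understates the change of genes with low counts.

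The largest differences were those of the 2 most variable genes. St8sia4 had a log2 fold change of 0.41 (SE 0.28, limma adjusted p = 0.541), with 5 anti-CD22 libraries of 7 higher than the IgG median. St3gal1 had one of -0.43 (SE 0.33, limma adjusted p = 0.588), with 5 anti-CD22 libraries of 7 lower than the IgG median. Its lowest, median and highest values were 33.0, 52.2 and 138 normalized counts in anti-CD22 libraries, against 45.2, 82.6 and 132 in IgG libraries. Both the lowest and the highest of all libraries were thus anti-CD22 ones, replicates 6 and 7. St6gal1 had a log2 fold change of 0.11 (SE 0.10, limma adjusted p = 0.682). For the other 7 genes the log2 fold change lay between -0.18 for St3gal4 and 0.08 for St3gal6, with limma adjusted p from 0.567 for St3gal6 to 0.934 for St6galnac4.

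**Figure D3:**
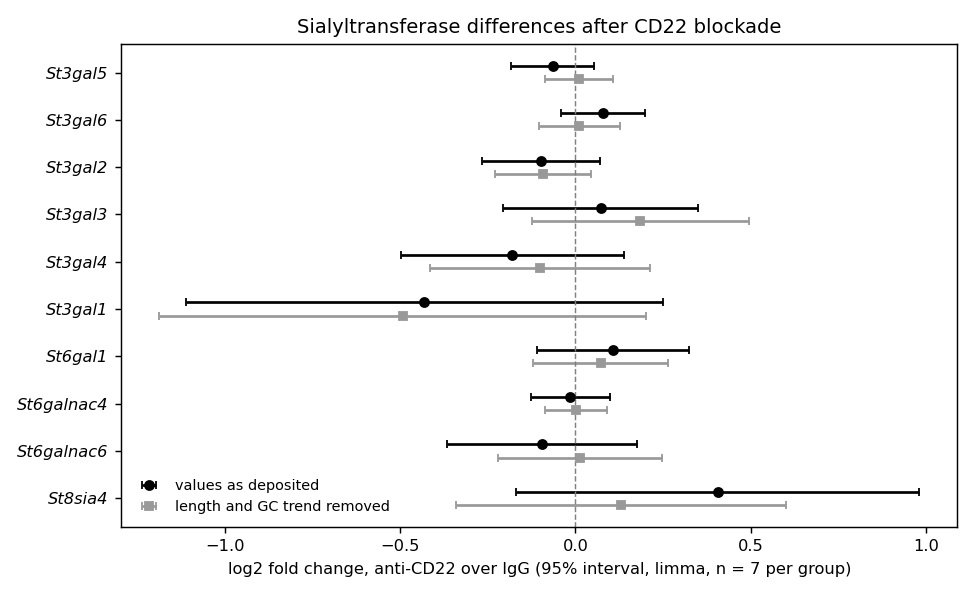
Log2 fold change of each gene, anti-CD22 over IgG, with its 95% interval from limma (n = 7 libraries per group), for the values as deposited (black circles) and after removal of the transcript length and GC trend of each library (grey squares). All 10 intervals include 0 in both, and those of St3gal1 and St8sia4 are the widest.

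St8sia4 has the longest transcript of the 10 genes, at 10027 bases, longer than 97.8% of tested genes, and its GC content of 36.1% is higher than that of 0.570% of them. The libraries differed in how far level followed transcript length. The Spearman rho across genes between transcript length and a library's deviation from the mean over the 14 libraries was 0.310, 0.286, 0.327, 0.136, 0.128, -0.0480 and -0.269 in anti-CD22 replicates 1 to 7. In IgG libraries it lay between -0.259 and -0.00295. The 3 anti-CD22 libraries of highest rho were the 3 of highest St8sia4, and anti-CD22 replicate 7, of lowest rho, had the lowest St8sia4 and the lowest St6gal1 of all 14 libraries and the highest St3gal1.

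With the length and GC trend removed in each library, St8sia4 had a log2 fold change of 0.13 (SE 0.23, limma adjusted p = 0.888). Without the 3 anti-CD22 libraries of steepest trend, which left anti-CD22 replicates 4 to 7, it was -0.03. The 3 left out were also those of highest St8sia4, so this fit must lower its value and cannot test the length trend. Without anti-CD22 replicate 7 the log2 fold change of St8sia4 was 0.66 (SE 0.20, limma adjusted p = 0.118). With both that library left out and the trend removed it was 0.35 (limma adjusted p = 0.379). St6gal1 had a log2 fold change of 0.21 (SE 0.066, limma adjusted p = 0.135) without anti-CD22 replicate 7, of 0.01 without the 3 steepest libraries and of 0.07 with the trend removed. St3gal1 moved the other way, to -0.63 without anti-CD22 replicate 7 and to -0.14 without the 3 steepest libraries, and stood at -0.49 with the trend removed, against -0.43 in the main test. Among the others, removing the trend moved St3gal3 to 0.19 (0.07 in the main test), St3gal4 to -0.10 (-0.18) and St3gal6 to 0.01 (0.08). None of the 10 genes passed the threshold in any of these 4 fits (0 genes in each). Apart from these values, the part of the length trend in the differences was not tested.

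**Figure D4:**
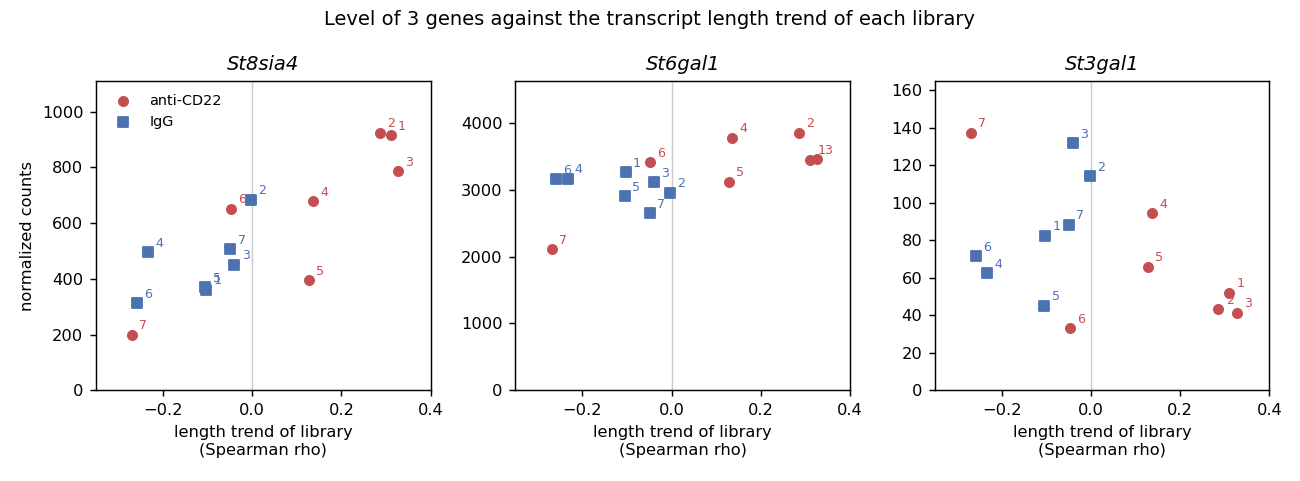
Normalized counts of St8sia4, St6gal1 and St3gal1 in each library against that library's length trend, the Spearman rho across genes between transcript length and relative level. Red circles are anti-CD22 and blue squares IgG libraries, numbered by replicate; anti-CD22 replicate 7, at a rho of -0.269, has the lowest St8sia4 and St6gal1 and the highest St3gal1.

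The mouse has further sialyltransferases, and 10 of them formed a list of their own. Of these, 2 passed the filter and 0 were called. St8sia6, which adds α2,8-linked sialic acid mainly to O-glycans and makes ligands of Siglec-E in the mouse, stood at 1672 ± 211 normalized counts in anti-CD22 libraries and at 1746 ± 292 in IgG libraries (SD, n = 7 each; log2 fold change -0.05, limma adjusted p = 0.865). Per kilobase its level was 219 ± 27.7 in anti-CD22 libraries and 229 ± 38.4 in IgG libraries, between those of St3gal3 and St3gal4 and above that of St8sia4. St8sia1, which makes the ganglioside GD3 from the GM3 that St3gal5 provides, was low, at 60.4 ± 36.4 normalized counts in anti-CD22 libraries and 62.3 ± 24.0 in IgG libraries (log2 fold change -0.25, limma adjusted p = 0.827). St6gal2, St6galnac1, St6galnac3, St8sia2 and St8sia5 were at 0 in every library. A count of 0 allows up to 3 reads, or from 2.20 to 4.14 normalized counts depending on the library. St6galnac2, St6galnac5 and St8sia3 reached at most 5.87, 7.76 and 15.2 normalized counts in any library.

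The genes around the sialyltransferases were read in the main test only, without removal of the length trend. Named from each list are the 2 genes of smallest limma p, and also Cmah for its low values. Of 6 genes of sialic acid supply 2 were higher and 4 lower in anti-CD22 libraries. Their median log2 fold change was -0.20, and 0 were called, where 0.00859% of all genes tested were. At an unadjusted limma p under 0.05 there were 2 of 6 (1 higher, 1 lower), against 12.8% of all genes. Cmas, which makes the CMP-sialic acid that all these enzymes use, averaged 1708 ± 147 normalized counts in anti-CD22 libraries and 2080.3 ± 167 in IgG libraries (SD, n = 7 each). Its log2 fold change was -0.28 (SE 0.073, limma adjusted p = 0.195), and 7 of 7 anti-CD22 values were lower than the IgG median. Gne, which starts sialic acid synthesis, had a log2 fold change of 0.23 (limma adjusted p = 0.372). Cmah, counted among the 4 lower genes, was above 0 in only 3 of 7 libraries of each group. Its log2 fold change of -0.68 had an SE of 1.33, so its direction is not known. Of 8 tested genes of sialic acid removal and O-acetylation 5 were higher and 3 lower, with a median of 0.03 and 0 called. Here 1 of 8 had an unadjusted limma p under 0.05, against the same 12.8%. The lysosomal sialidase Neu1 had a log2 fold change of -0.16 (limma adjusted p = 0.328) and the sialic acid esterase Siae one of 0.17 (limma adjusted p = 0.462).

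Of 19 tested transferases that build the acceptor glycans 11 were higher and 8 lower. Their median log2 fold change was 0.04, and 0 were called, where 0.00859% of all genes tested were. An unadjusted limma p under 0.05 was found for 6 of 19 (4 higher, 2 lower), against 12.8% of all genes. Mgat4a and Mgat4b, which start the same branch of N-glycans and had the smallest limma p of this list, differed in sign. Mgat4a averaged 3837 ± 699 normalized counts in anti-CD22 libraries and 2860.4 ± 518 in IgG libraries, a log2 fold change of 0.42 (SE 0.13, limma adjusted p = 0.235). Mgat4b averaged 3360.3 ± 324 in anti-CD22 libraries and 3938 ± 292 in IgG libraries, a log2 fold change of -0.23 (SE 0.069, limma adjusted p = 0.229; SD, n = 7 each for both genes). Of 8 tested Siglec receptors 5 were higher and 3 lower, with a median of 0.02 and 0 called. Among them 1 of 8 had an unadjusted limma p under 0.05, against the same 12.8%. Cd33 had a log2 fold change of 0.17 (limma adjusted p = 0.238) and Siglece, whose ligands St8sia6 makes, one of 0.08 (limma adjusted p = 0.557).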

How the data were processed

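Per the submitters' processing notes, the tools were bcl2fastq, STAR and DESeq2 and the build mm10, and per the labels' design text counting used SummarizedExperiment. Versions, annotation, strand setting and read filters: not given in the sources used here. Deposited values are a signal, the authors' read counts per gene divided by 1 size factor per library. Of 24421 entries, 27 whose names had turned into dates (at most 0.149% of a library) were left out, and 0 columns were without a sample. Titles of the samples gave the groups.

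Groups were compared with limma with a mean-variance trend on log2(normalized count + 1), two-sided, with no covariate, for genes with a mean of at least 10, adjusted over all genes tested. It was tested on simulated counts with the same variance setting for all genes and no length trend. There it recovered 59 of 100 changes of 1.5-fold and 97 of 100 of 2-fold, with 5 false calls. The simulation does not cover libraries that differ in length trend. Whole reads were recovered for 13 libraries, where 100% of values were whole multiples of a step within 0.1 reads, and served edgeR's quasi-likelihood test and DESeq2. Anti-CD22 replicate 3, with a step near 1, was left out of these 2 tests. No replicates were alike within counting error (lowest chi-square per gene 18.1). Intervals from limma cover the spread between libraries, and the reads, which carry no molecular identifiers, do not count single molecules.

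Lengths, GC content and coordinates came from GENCODE vM21 (GRCm38, the assembly of mm10), matched by symbol for 96.4% of tested genes. Natural splines with 4 degrees of freedom each for length and GC removed the trend in each library, and genes without a length stayed as they were. Named are all 10 members, further sialyltransferases that passed the filter, Cd22 and the 2 genes of smallest p in each list. The 5 lists, the 10 marker lists and the members were chosen with earlier results of these data known. Cmah, and other genes named beside an overlap or a call, were chosen after their values were seen. Alternatives were other pseudocounts, filters, scalings, variance models, weights, a replicate block, trend removal, count models, transcript lengths and leaving out libraries. The trend removal without anti-CD22 replicate 7 was chosen after seeing the data. Protein sequences were not used here. Fits ran in limma 3.58.1, DESeq2 1.42.0 and edgeR 4.0.16 under R 4.3.3. Summaries and figures used pandas 2.3.3 and matplotlib 3.10.9 under Python 3.11.15.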

Additional observations from a re-analysis of the deposited data

Results flagged for a closer look

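St6gal1 in anti-CD22 replicate 7, at 2112 normalized counts, lay apart from the other 6 anti-CD22 libraries, the nearest of which stood at 3122. The gap was 0.579 of the group's whole range, over the critical value of 0.568 for 7 samples. It was 1 of 24 groups of libraries looked at in this way (10 sialyltransferases and 2 further ones in each group), and chance flags about 1 in 20.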

How the results depend on the processing

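None of the 10 genes passed the threshold in any of the 30 other fits (0 in each), where the lowest limma adjusted p of any of them was 0.118. Of 300 log2 fold changes in those fits 16 had the other sign, all of them small. With the length and GC trend removed, with or without the replicate block, St3gal5 stood at 0.00995, St6galnac4 at 0.0023 and St6galnac6 at 0.0119, and with anti-CD22 replicate 7 left out as well St3gal5 at 0.00725. Without the 3 steepest libraries St6galnac4 stood at 0.0504, St6galnac6 at 0.0148 and St8sia4 at -0.0286. St6galnac4 stood at 0.0125 by edgeR and 0.00921 by DESeq2. Leaving out each library in turn, St6galnac4 ranged from -0.0416 to 0.0106 and St3gal3 from -0.00088 to 0.132. The count over all genes, 1 in the main test, was 0 without a mean-variance trend, with the trend removed (also without anti-CD22 replicate 7), without the 3 steepest libraries and by edgeR (1027 genes at an unadjusted p under 0.05). It was 8 with array weights, 35 by DESeq2, and from 0 to 43 on leaving out single libraries, the highest without anti-CD22 replicate 7. With coding length 6 of 10 genes kept their rank, and the shares were 58.1% for α2,3, 33.2% for GalNAc and 1.42% for α2,8. With the union of exons all 10 ranks were kept and the shares were 72.9% for α2,3 and 19.4% for GalNAc. The cause of these changes was not tested. With the replicate number as a block 2 genes were called. Same-numbered libraries had correlations of their deviations between -0.145 and 0.160, and 0 of 7 pairs correlated best with their own number. These correlations show no pairing by number, but, taken over all genes at once, they cannot exclude one. At 7 libraries per group the SE of a log2 fold change had a median of 0.13. St8sia4 and St3gal1, the 2 most variable of the 10 genes, had SEs of 0.28 and 0.33.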
